A study of Bos taurus with 3 samples.

Results

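The rod phosphodiesterase and cyclic-nucleotide channel genes PDE6A, PDE6B, PDE6G and CNGA1 were examined in a list of Argonaute-bound sites from bovine retina. Every line of the 2 strand tables whose gene name was one of these 4 was taken, which gave 7 of the 402 listed sites and 4 of the 280 named genes. All 4 genes carried at least 1 site, but they were chosen with earlier results of these data known. Argonaute HITS-CLIP sequences the RNA that ultraviolet light has crosslinked to Argonaute, the protein that microRNAs (miRNAs) guide to their targets. Retinas of cattle labelled as mixed strain were dissected, broken up into clusters of cells and irradiated with 3 exposures of 400 mJ/cm2. There was 1 group of 3 replicates and no control sample, so all comparisons lie among sites, genes and replicates. The labels do not say whether the replicates came from separate animals, so an SD over them may hold technical spread only.

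In rods, light-activated transducin relieves the block on phosphodiesterase, the enzyme hydrolyses cGMP, and the cation channel of the outer segment closes as cGMP runs down. PDE6A and PDE6B encode the catalytic alpha and beta subunits of that enzyme, and PDE6G encodes the small gamma subunit that holds them inactive in the dark. CNGA1 encodes the channel subunit that opens on binding cGMP. A miRNA typically pairs with a short stretch of a messenger RNA, most often described in 3' UTRs, and lowers its translation or stability.

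Each listed site had a peak in all 3 replicates. Its height is the mean over replicates of tags, the authors' count of sequenced fragments per peak, which may leave out repeated fragments. The tags in all listed sites numbered 6421, 5779 and 4114 in replicates 1, 2 and 3, sums that are not library depths, and the median site had 12, 10 and 7 tags. Of 12 rod markers 10 carried a site, but 4 of them are the genes studied here; without these it was 6 of 8, against 2 of 8 cone markers and 1 of 7 ganglion cell markers. No site lay in any of 6 Müller glia, 6 bipolar, 6 amacrine and horizontal, 6 pigment epithelium or 7 vessel and blood markers. The share of all bovine genes with a site was not counted, so these marker counts have no baseline. The mRNA levels were not measured, so tags cannot be set against transcript abundance, and fewer cells of a type cannot be told apart from less RNA per cell.

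The inhibitory subunit gene PDE6G had the most tags of the 4 genes, in 3 sites on chromosome 19 of the plus-strand table. Its 3 sites together held 79, 104 and 74 tags in replicates 1 to 3, or 85.7 ± 16.1 tags (SD, n = 3), which placed it at rank 5 of the 280 named genes. This was 57.2%, 69.8% and 75.5% of all tags in the 4 genes in replicates 1, 2 and 3. The highest was the 3' UTR site (52243300 to 52243643, in the coordinates of the authors, who name no build), with 34, 54 and 41 tags in the 3 replicates. At 43 ± 10.1 tags (SD, n = 3) it ranked 3 among the 223 sites in 3' UTRs and 9 among all 402 sites. In replicate 1 alone it ranked 23 of 223, by summit pile-up (the whole number of steps in the authors' fold enrichment) 20, and by tags per 100 nt of peak 76.

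**Figure D1:**
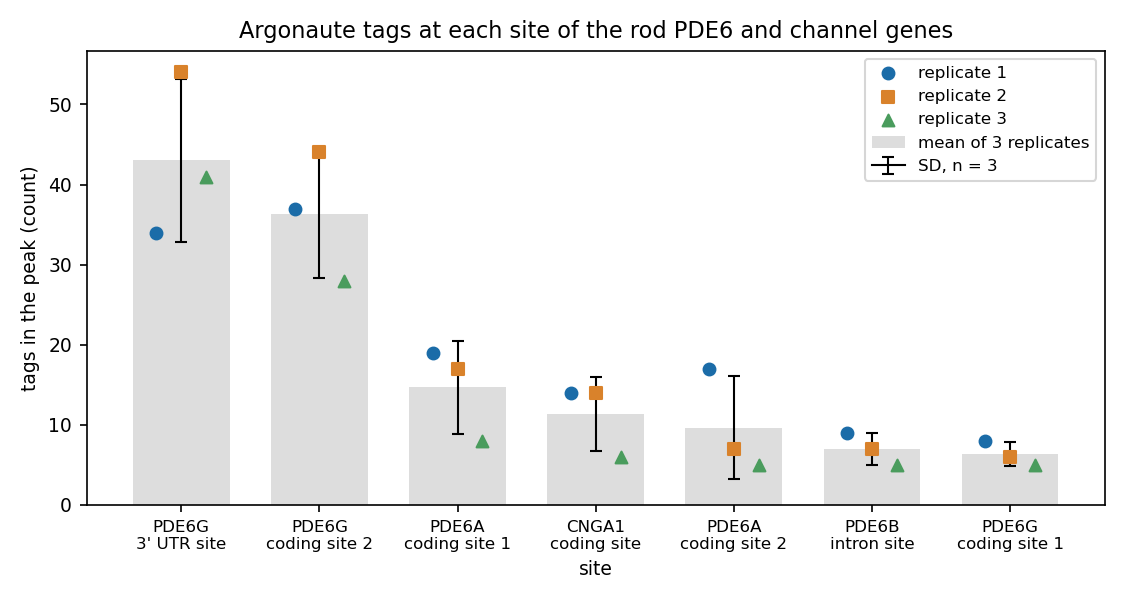
Tags in the peak (y axis, count) at each of the 7 sites (x axis, ordered by mean); grey bars are means of 3 replicates, black lines the SD and coloured points the replicates. The 3' UTR site and coding site 2 of PDE6G hold 28 to 54 tags in each replicate, above the highest replicate of any other site shown, 19 tags.

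The tallest coding site of PDE6G was close to its 3' UTR site in height. This site (coding site 2, 52243054 to 52243225) had 37, 44 and 28 tags in replicates 1 to 3, or 36.3 ± 8.02 (SD, n = 3). Its ranges and those of the 3' UTR site, 34 to 54 tags, overlapped. The ratio of the 3' UTR site over coding site 2 was 0.919, 1.23 and 1.46 in replicates 1, 2 and 3, so the taller of the pair was the coding site in replicate 1 and the 3' UTR site in the other 2 replicates.

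By mean tags, coding site 2 of PDE6G ranked 1 among the 81 coding sites of the series. It was followed by a site of RBP3, the retinoid carrier between photoreceptors and pigment epithelium, with 6, 72 and 26 tags, and by a site of CRLF3, a cytokine receptor-like factor, with 37, 36 and 23 tags. The 3 tallest coding sites overlapped in their replicate ranges. PDE6G was level with CRLF3 at rank 1 in replicate 1, stood at rank 2 behind RBP3 in replicate 2 and at rank 1 in replicate 3. Without replicate 1 it ranked 2, and by tags per 100 nt of peak it ranked 6 of 81.

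The first coding site of PDE6G (52242581 to 52242630) was small, with 8, 6 and 5 tags, or 6.33 ± 1.53 (SD, n = 3). It ranked 71 among the 81 coding sites. Coding site 2 held 4.62, 7.33 and 5.60 times as many tags in replicates 1, 2 and 3, and the replicate ranges of the 2 coding sites did not overlap. Of the tags of PDE6G, the 3' UTR site held 50.1% ± 6.38, coding site 2 held 42.3% ± 4.50 and coding site 1 held 7.55% ± 2.28 (SD, n = 3).

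**Figure D2:**
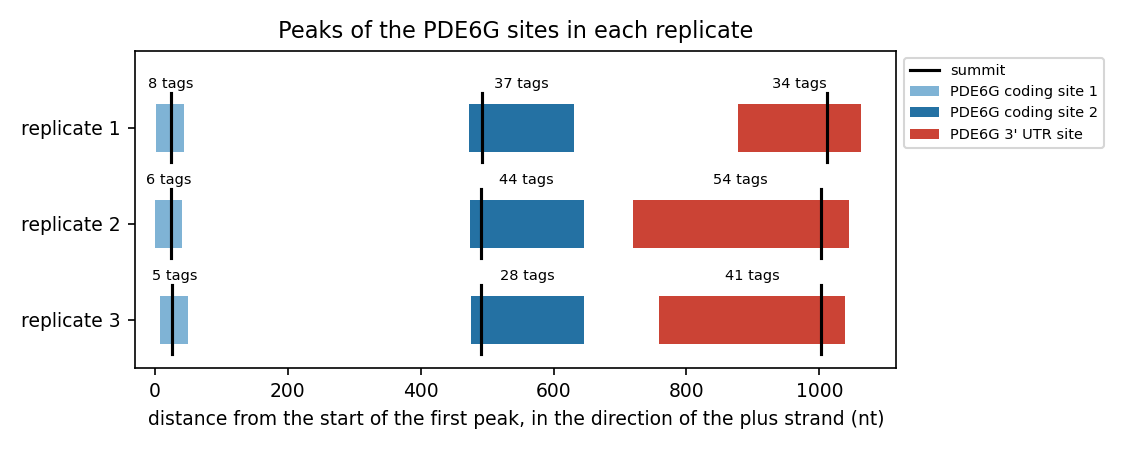
Peaks of the 3 PDE6G sites in each replicate (rows), drawn to scale against distance in nt from the start of the first peak; black lines are summits and numbers are tags. The summits of each site line up across replicates, within 1 or 2 nt at the coding sites and 9 nt at the 3' UTR site, while the 3' UTR peak is 185, 325 and 280 nt long in replicates 1, 2 and 3.

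The 3 PDE6G sites lay close together, in the order coding, coding, 3' UTR along the plus strand. Between the outermost peak ends, 423 nt separated the 2 coding sites and 74 nt separated coding site 2 from the 3' UTR site. Over the series, neighbouring sites of the same gene on the same strand formed 90 pairs with a median gap of 1360 nt. Of these pairs, 9 lay within 100 nt and 38 within 1000 nt. All gaps are distances in the genome, and those along the mRNA were not measured. The summits of coding site 2 fell on 52243073, 52243072 and 52243072 in replicates 1, 2 and 3, a spread of 1 nt, against a median of 9 nt over all 402 sites. Within its peaks of 158, 171 and 169 nt, that summit stood 19, 17 and 15 nt after the peak's first base in plus-strand coordinates. The summit of the 3' UTR site lay near the other end of its peaks, 133, 284 and 243 nt after the first base of peaks 185, 325 and 280 nt long.

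The length of the PDE6G 3' UTR peak varied with its tags. Its end moved by no more than a few bases between replicates 2 and 3 (52243624 and 52243619, against 52243643 in replicate 1). Its start lay at 52243459, 52243300 and 52243340 in replicates 1, 2 and 3. The shortest of the 3 peaks, in replicate 1, held the fewest tags, and the longest, in replicate 2, the most. The stretch common to the 3 peaks was 161 nt of a span of 344 nt. Per 100 nt of peak the site had 18.4, 16.6 and 14.6 tags in replicates 1, 2 and 3, highest in replicate 1. These values were not scaled for the replicates' total tags in sites, which fell in the same order (6421, 5779 and 4114). They therefore do not show whether replicate 1 was high for its size.

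Whether a site's tags differed between replicates beyond counting noise was tested with an exact multinomial test over all 402 sites, after scaling the replicates by the median ratio over sites. Of the 7 sites, 0 passed (Benjamini-Hochberg adjusted p under 0.05), against 20 of all 402 sites, or 4.98%; 1 of the 7 had an unadjusted p under 0.05, against 14.7% of all sites. That one was the PDE6G 3' UTR site (exact multinomial test, adjusted p = 0.0835), whose tags in replicate 1 were low relative to the other replicates. It passed when replicates were scaled by the fold enrichment steps (exact multinomial test, adjusted p = 0.00243), and when the test was confined to sites of at least the median height (adjusted p = 0.0419). When expected tags were made proportional to peak length it was far from passing (exact multinomial test, adjusted p = 0.954). Peak length rose with the tags at this site, so that setting cannot decide whether its tags differed. The adjusted p over all alternatives ran from 0.00243 to 1. The other 6 sites had adjusted p from 0.617 to 1 in the same exact test. The test had little power at low sites, such as PDE6G coding site 1 and the PDE6B site, with 19 and 21 tags in all. Sites without a peak in each of the 3 replicates were not listed, which leaves out the most uneven ones. The sites that did not pass are therefore not shown to agree between replicates.

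The catalytic alpha subunit gene PDE6A had the second most tags, in 2 coding sites on chromosome 7 of the minus-strand table. Together they held 36, 24 and 13 tags in replicates 1 to 3, or 24.3 ± 11.5 (SD, n = 3), which ranked 47 of 280 named genes. Coding site 1 (61690381 to 61690574) had 19, 17 and 8 tags, or 14.7 ± 5.86 (SD, n = 3), and ranked 8 of 81 coding sites. Without replicate 1 it ranked 13, in replicate 3 alone 26, by summit pile-up 32 and by tags per 100 nt of peak 73. Coding site 2 (61646813 to 61646947) had 17, 7 and 5 tags, or 9.67 ± 6.43 (SD, n = 3), and ranked 34 of 81. Its rank was 65 without replicate 1, 20 without replicate 2 and 77 by tags per 100 nt. Their ranges overlapped, though coding site 1 held more in each replicate, by 1.12, 2.43 and 1.60 times.

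The 2 PDE6A sites were 43433 nt apart in the genome, against 423 nt and 74 nt between those of PDE6G. In 13 of the 90 neighbouring pairs of the series the gap exceeded 10000 nt. The summits of coding site 2 stood 18, 18 and 15 nt after the low-coordinate end of peaks 133, 79 and 63 nt long, with a spread of 5 nt between replicates. At coding site 1 the summit spread was 12 nt. In replicate 1 the 2 sites had nearly the same tags, while replicates 2 and 3 had fewer at coding site 2. Neither site passed the exact multinomial test (adjusted p = 0.940 and 0.617 for coding sites 1 and 2).

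The catalytic beta subunit gene PDE6B had a single site, placed by the authors in an intron on chromosome 6 (117798029 to 117798126) of the plus-strand table. It held 9, 7 and 5 tags in replicates 1 to 3, or 7 ± 2 (SD, n = 3), which ranked 227 of 280 named genes. Among the 34 intron sites it ranked 21. The sum of 21 tags has an exact Poisson interval of 13 to 32.1 (95%, counting error only). Its replicate 3 peak had a score (−10 times the log10 of the peak's p-value, by the authors) of 202, when the lowest score of any listed peak was 200.02.

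The position of the PDE6B site was less well defined than that of the other 6 sites. Its summits lay at 117798081, 117798074 and 117798104 in replicates 1 to 3, a spread of 30 nt, against 1 to 12 nt at the other 6 sites. The summit pile-up was 7, 5 and 2. Replicate 3 thus had both the lowest pile-up and the summit farthest from the others. PDE6A and PDE6B are related in sequence, and no source used here says how the authors treated tags that fit more than 1 place. The PDE6B site was intronic and both PDE6A sites were coding, and the effect of such tags was not tested.

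The channel subunit gene CNGA1 had 1 coding site on chromosome 6 (69169540 to 69169629), in the minus-strand table. It held 14, 14 and 6 tags in replicates 1 to 3, or 11.3 ± 4.62 (SD, n = 3), which ranked 119 of 280 named genes and 22 of 81 coding sites. The peaks were 83, 62 and 43 nt long, and shared 36 nt. The summits fell within 7 nt of each other, at 69169593, 69169591 and 69169598. The summit pile-up was 7, 10 and 5, so replicate 2 reached the highest pile-up from a shorter peak than replicate 1 with the same number of tags.

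**Figure D3:**
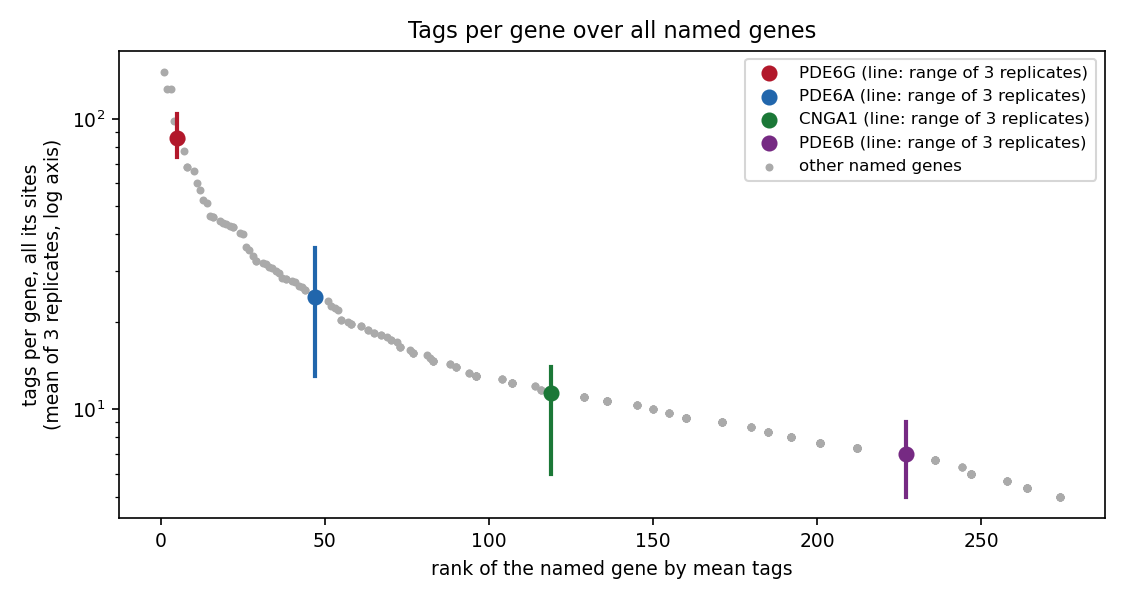
Tags per gene summed over its sites (y axis, mean of 3 replicates, log axis) against the rank of the gene (x axis) for 280 named genes; the 4 genes are coloured, with lines for the range over replicates. PDE6G lies at rank 5, PDE6A at 47, CNGA1 at 119 and PDE6B at 227.

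The order of tags per gene was PDE6G, PDE6A, CNGA1, PDE6B in each of the 3 replicates. PDE6G, at 74 to 104 tags, did not overlap with any of the other 3 genes. PDE6A (13 to 36 tags) and CNGA1 (6 to 14 tags) overlapped in range, as did CNGA1 and PDE6B (5 to 9 tags), whereas PDE6A and PDE6B did not. These ranges include the lower tag totals of replicate 3. Within replicates 1, 2 and 3, PDE6A had 2.57, 1.71 and 2.17 times the tags of CNGA1, and CNGA1 had 1.56, 2 and 1.20 times those of PDE6B. Both ratios were above 1 in 3 of 3 replicates. No test of the order was made, since with 3 replicates an exact paired permutation test cannot go below p = 0.25.

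Per length of peak the order changed. PDE6G had 20.5, 19.4 and 15.1 tags per 100 nt of peak in replicates 1 to 3, and CNGA1 had 16.9, 22.6 and 13.95 tags per 100 nt. These 2 genes overlapped on this scale, at ranks 79 and 84 of 280. PDE6A had 12.6, 9.80 and 8.50 tags per 100 nt, and PDE6B had 13.8, 10.3 and 5.21. Both lay below every CNGA1 replicate and below the median of all named genes, 14.6 tags per 100 nt. PDE6G thus stood at rank 5 by tags and at rank 79 by tags per 100 nt.

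**Figure D4:**
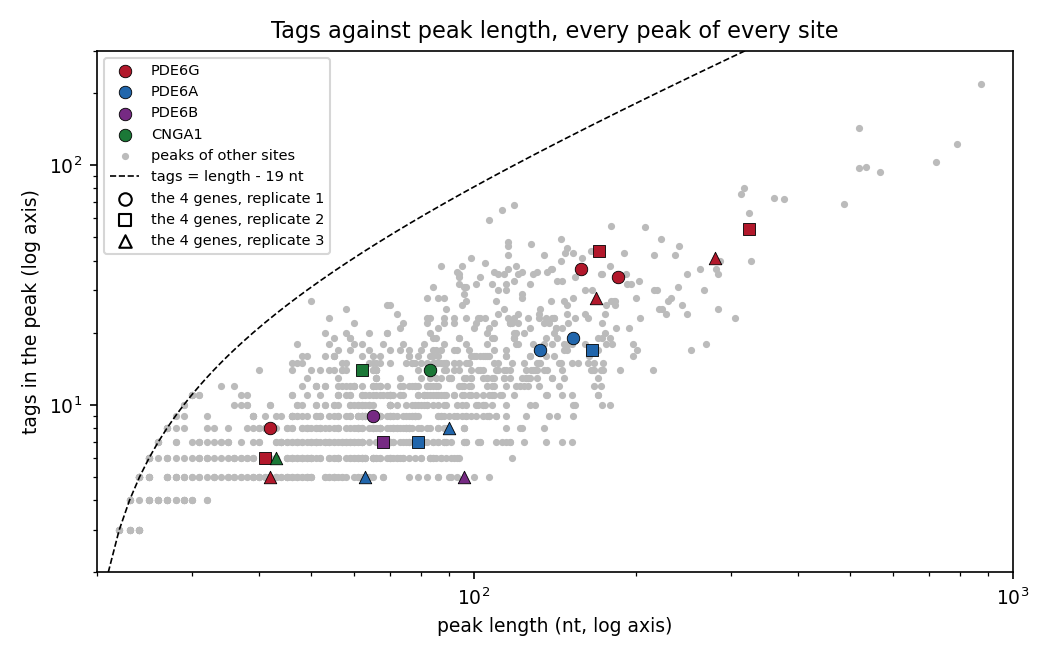
Tags in a peak (y axis, log axis) against peak length in nt (x axis, log axis) for all 1206 peaks; the 4 genes are coloured with a symbol for each replicate, and the dashed line marks a length 19 nt above the tag count, which no peak passed. The peaks of the 4 genes all lie at least 34 nt above their tag count, clear of that line.

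A smallest difference between peak length and tags, seen over the series, was not reached at these genes. The summit pile-up was at most 20 in any listed peak and at most 14 at these genes, in PDE6G coding site 2. Whether 20 is a ceiling that holds down tall sites was not tested. In all 1206 peaks the length exceeded the tags by 19 nt or more, and 45 peaks met 19 nt exactly. Whether length limited the tags or more tags made longer peaks was not tested, and how repeated fragments were counted is not stated. The closest of the 4 genes was PDE6G coding site 1 with 34 nt in replicate 1, followed by its other replicates at 35 and 37 nt and by CNGA1 in replicate 3, also at 37 nt. Tags were higher in replicate 1 than in replicate 3 at 6 of the 7 sites, the exception being the PDE6G 3' UTR site, and at 73.9% of all 402 sites.

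Coding sequence, not the 3' UTR, held most sites of these genes. By the authors' location classes 5 of the 7 sites were coding (71.4%), 1 lay in a 3' UTR and 1 in an intron. Over all 402 sites 81 were coding (20.1%), 223 lay in 3' UTRs and 34 in introns. By tags, coding sites held 60.3% ± 7.96 of the tags of the 4 genes, against 15.7% ± 0.82 over all sites (SD, n = 3). The single 3' UTR site held 34.2% ± 8.77 (SD, n = 3), or 24.6%, 36.2% and 41.8% in replicates 1, 2 and 3. PDE6G was the only one of the 4 with a 3' UTR site, and PDE6A and CNGA1 had coding sites alone. With only sites above the median height, 3 coding sites and the 3' UTR site were counted. The sites of 1 gene are not independent of each other, and no test was made of these shares.

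**Figure D5:**
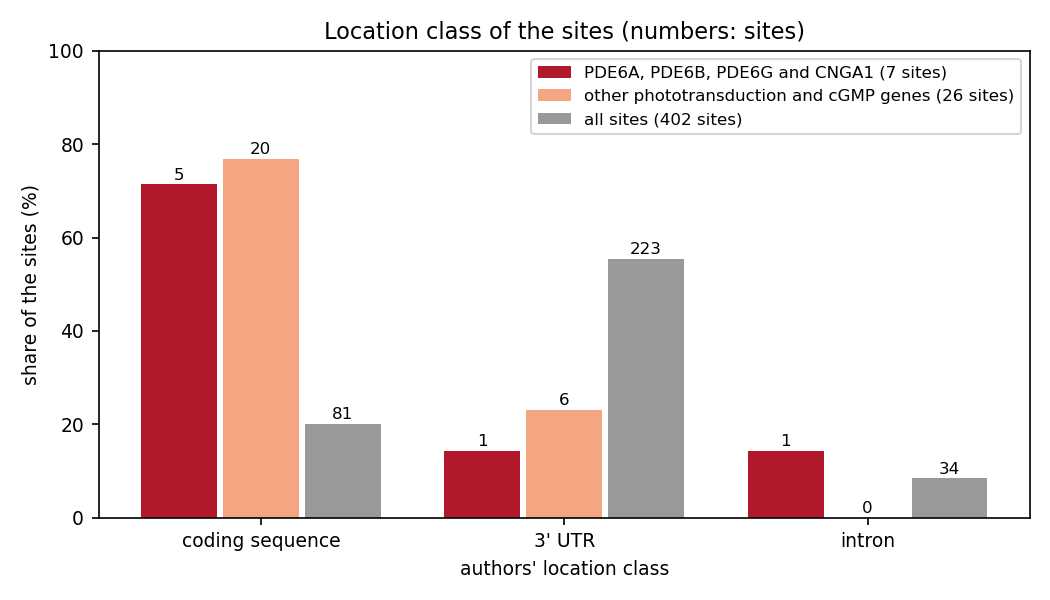
Share of sites (y axis, percent) in coding sequence, 3' UTRs and introns (x axis) for the 4 genes, for other phototransduction and cGMP genes and for all sites; numbers on the bars are sites. Coding sites make up 5 of 7, 20 of 26 and 81 of 402 sites in the same order.

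Coding sites were also the larger class among the other genes of the pathway. Of 34 other genes of phototransduction and cGMP metabolism, 10 carried a site (29.4%), with 26 sites in all, and 20 of the 26 were coding (76.9%) and 6 lay in 3' UTRs. The list was chosen with earlier results of these data known. The share of all bovine genes with a site was not counted, so 29.4% cannot be called high or low. By tags, coding sites held 61.1% ± 1.33 and 3' UTR sites 38.9% ± 1.33 (SD, n = 3). Few genes made up much of the count, with 7 of the 26 sites in SAG, 5 in GNB1 and 5 in GNAT1. The tallest of the 26 was a 3' UTR site of GNAT1, at 60 ± 21.7 tags (SD, n = 3). The median height was 11.3 tags at the 7 sites, 10.7 at these 26 and 10.3 over all 402. Directly upstream of the phosphodiesterase, the rod transducin subunits GNAT1 (alpha) and GNB1 (beta) had 98.3 ± 28.7 and 60 ± 14.4 tags per gene (SD, n = 3). GNAT1 thus stood next to PDE6G, at rank 4 of 280, and the replicate ranges of both genes overlapped. Among genes that end or damp the response, SAG, the rod arrestin, had 68.3 ± 10.8 tags, RGS9BP, the anchor of the transducin deactivating complex, had 35.3 ± 12, and PDC, which binds transducin beta and gamma subunits, had 24 ± 9.54 (SD, n = 3). From the same list, the rod transducin gamma subunit gene GNGT1 and the genes GRK1, RCVRN, RGS9 and GNB5 carried no site.

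The cone counterparts of the 4 genes, and some but not all of their partners, carried no site in the tables used here. These were the cone phosphodiesterase genes PDE6C and PDE6H, the cone channel genes CNGA3 and CNGB3, the rod channel partner subunit CNGB1, and PDE6D, a prenyl-binding protein that carries phosphodiesterase to the outer segment. The guanylate cyclases GUCY2D and GUCY2F, which make cGMP, their activators GUCA1A and GUCA1B, and the rod exchanger SLC24A1 had none either. Among cone genes of the pathway, GNAT2, the cone transducin alpha subunit, had 12.7 ± 1.15 tags and ARR3, the cone arrestin, had 8.67 ± 3.79 (SD, n = 3). Absence from the tables does not show that Argonaute was absent, because peaks under the authors' threshold are not listed.

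The genes nearest to each of the 4 were found by the Euclidean distance between log2 tags per gene in the 3 replicates, over 280 named genes. Nearest to PDE6G were TNPO1, a nuclear import receptor, at a distance of 0.26, GNAT1 at 0.53 and SAG at 0.65. TNPO1 had 88, 104 and 64 tags, all in 3' UTR sites, where PDE6G had 79, 104 and 74 tags in coding and 3' UTR sites. Nearest to PDE6A were BZW1, a regulator of translation start, at 0.18, DYRK2, a protein kinase, at 0.22 and PCMTD2 at 0.24. For CNGA1 they were FGD4, an exchange factor of a small GTPase, at 0.19, FAM169A at 0.28 and NLK, a protein kinase, at 0.34. PDE6B had the same tags as PNRC1, a nuclear receptor coactivator, with 9, 7 and 5 in replicates 1 to 3. Next to it came YOD1, a deubiquitinase, at 0.19 and the miRNA gene MIR181C at 0.22. These distances rest on 3 replicates and on tags not scaled for the replicates' totals, so they mainly match genes of like height. PDE6B had 5 to 9 tags a replicate and CNGA1 6 to 14, so counting error limits which genes come nearest to them.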

How the data were processed

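Argonaute HITS-CLIP was made from bovine retina in 3 replicates of 1 group. CASAVA 1.8.1 and GSNAP appear in the submitters' processing notes, with no role stated; no source used here gives the peak caller, the build or the site rule. Per the file headers, tags are a count per peak and replicate. Per the file headers, a score of −10 times log10 of the p-value and a fold enrichment over an undescribed background are given for every peak. Within each strand table and replicate the fold enrichment was a whole multiple of a step (within 0.02); the multiple is called the summit pile-up here, a name the files do not use.

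Gene names were upper-cased and matched exactly; all 4 were in the NCBI RefSeq table of ARS-UCD2.0, used for names only. Tags entered unscaled, with no pseudocount. The exact multinomial test ran on all 402 sites with Benjamini-Hochberg adjustment. It was tried on data simulated from its own multinomial model, which does not show its error rate on these data. Molecular identifiers are not described, and the Poisson interval covers counting error alone. Members, lists and tests were chosen with earlier results of these data known. Named genes are the 4, up to 8 pathway genes with the tallest sites, and 3 nearest genes each, of which 1 is not reported here; RBP3, CRLF3 and the pathway genes without a site were chosen after their values were seen. GUCA1C is not in the gene table and was not counted. Computations used scipy 1.17.1, pandas 2.3.3 and numpy 2.4.6 in Python 3.11.15, with figures from matplotlib 3.10.9.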

Additional observations from a re-analysis of the deposited data

How the results depend on the processing

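Of 148 values recomputed under the alternatives, 119 kept their call or moved by less than the spread, 27 moved and 2 gained a call. Among the moved values, PDE6A and CNGA1 changed places in the order of genes per 100 nt. With expected tags proportional to peak length, 2 of all 402 sites passed the exact test in place of 20, and leaving out a replicate gave 6 to 12. Peak length is not independent of the tags, so the drop to 2 sites does not show that the tags agreed. Of the 7 sites, 1 passed under the fold enrichment steps and 1 among sites of at least the median height, the PDE6G 3' UTR site each time, and 0 whichever replicate was left out.

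Sites above the median height numbered 1 in PDE6A and 0 in PDE6B, with 3 coding and 0 intron sites over the 4 genes. PDE6G counted 1 site with sites within 1000 nt merged, as its 3 sites lie that close. Tags per 100 nt per gene were 18.3 in PDE6G, 17.8 in CNGA1, 10.3 in PDE6A and 9.78 in PDE6B, which put CNGA1 at 2 and PDE6A at 3 in the order; the PDE6G tallest site had 16.5. By number of sites PDE6B shared place 3 with CNGA1. The summit pile-up, smaller by construction, was 29.7 in PDE6G, 12.7 in PDE6A and 4.67 in PDE6B per gene, and 12.3 and 6.67 at the tallest sites of PDE6G and PDE6A. Leaving out a replicate gave 76.5 to 91.5 tags per gene in PDE6G, 18.5 to 30 in PDE6A, 10 to 14 in CNGA1 and 6 to 8 in PDE6B, and 37.5 to 47.5 and 12.5 to 18 tags at the tallest sites of PDE6G and PDE6A.

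No paired analysis was possible because there is 1 group, so no groups share replicate numbers; within the group, sites and genes were set against each other as ratios in each replicate. Counting error limits the PDE6B site, with 5 to 9 tags a replicate, and PDE6G coding site 1, with 5 to 8. Where no construction is named, the cause of a change was not tested.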
